A study of Rattus norvegicus with 4 samples.

Results

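Fragments of U6 small nuclear RNA (U6 snRNA) and of Y1 RNA were followed in small RNA libraries of rat vascular smooth muscle cells over 24 h of angiotensin II. A fragment is a tag, that is, a distinct sequence with its read count, of 18 nt or more that lay wholly and exactly within either RNA. There were 439 U6 tags and 250 Y1 tags among the 2349038 tags of that length in the 4 libraries. No tag was shared by both RNAs, and no tag matched at more than 1 place (0 of 689). Tags are pieces of the same few molecules and are not replicates of a condition.

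The cells came from the aorta of Sprague-Dawley rats and were grown with 10% FBS, then held without serum for 48 h in every group. The groups were an untreated control and cells given angiotensin II (Ang II, 100 nM), the vessel-constricting peptide of the renin system, for 1 h, 3 h and 24 h. Each group had 1 library, so no difference below has a replicate check and no test of conditions was possible. The control carries no time of its own, so an effect of Ang II and one of longer culture cannot be told apart. The labels do not say how many animals or cultures gave the cells. In a bulk library, fewer cells of a type and less RNA per cell cannot be told apart.

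U6 is the spliceosomal RNA at the catalytic centre of splicing. It pairs with the 5' splice site, and RNA polymerase III ends its transcripts in a run of uridines that the La protein binds. Because it is stable and abundant, it is often used as the reference RNA when miRNAs are measured by RT-qPCR. Y1 belongs to the Y RNAs, short RNA polymerase III transcripts whose paired ends form a stem that the Ro60 protein binds, with a more open loop between. Fragments from the ends of Y RNAs are known from dying cells, blood and extracellular vesicles in humans. The libraries were cut to 17 to 52 nt, so the values below are levels of fragments and not of the whole RNAs.

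Neither RNA's sequence was in the RefSeq tables used here, so each was joined from the deposited tags themselves. From 1 seed tag, the sequence was walked out by overlaps of 14 to 16 nt while the next base had at least 2 reads and 80% of them. U6 was cut at 107 nt, the most common length among rat Rnu6 genes in RefSeq (46 of 86 annotated as snRNA). Y1 was ended at position 110, where the tags went on with different bases. The thinnest step rested on 2 reads in each RNA, and 5 of 84 U6 steps and 15 of 82 Y1 steps had under 10. The names U6 and Y1 rest on general knowledge of these RNAs and not on an annotation of the sequences. Positions count from 1 at the 5' end of the joined sequence. The Y1 sequence is shown because every Y1 value below refers to it, with capitals on positions 1 to 34 and 83 to 110, the stretches where most reads lay.
Y1 RNA: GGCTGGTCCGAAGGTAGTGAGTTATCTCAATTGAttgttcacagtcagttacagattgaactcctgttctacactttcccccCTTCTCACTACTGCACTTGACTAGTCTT

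Reads that name a sequence numbered 14395539 in the control library and 13119417, 14370167 and 14534892 after 1, 3 and 24 h, and levels are reads per 1000000 of that total (RPM). The smooth muscle miRNA miR-143-3p had 3572929 to 4454161 reads a library and miR-145-5p 31760 to 35806. The endothelial miR-126a-3p had 1326 to 1650 reads and the striated muscle miR-1-3p 1401 to 1718. The blood markers miR-451-5p and miR-142-3p (1 to 7 reads) and the striated muscle miR-133a-3p (1 to 11 reads) were near 0. All intervals given are exact, at 95%, and reflect counting error of reads alone. Reads copied by PCR do not stand for separate molecules, so the intervals can be too narrow for counts of molecules.

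A level was called higher or lower when log2((RPM + 1)/(RPM + 1)) passed 1.5-fold and the higher library had at least 100 reads. Among all tags with 100 reads, this called 4.84% higher and 17.2% lower at 1 h (4424 tags), 5.52% and 23.6% at 3 h (4530 tags), and 12.9% and 23.9% at 24 h (4811 tags). Among reads summed by miRNA hairpin, it called 1.39% higher and 2.08% lower at 1 h (144 hairpins), 4.79% and 1.37% at 3 h (146 hairpins), and 5.56% and 11.1% at 24 h (144 hairpins). The median log2 ratio to control of all such tags was -0.16, -0.18 and -0.21 after 1, 3 and 24 h. That of hairpins was -0.05, -0.05 and -0.23. TMM factors, a scaling that centres the bulk of tags, raise the log2 ratios by 0.17 to 0.20.

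U6 fragments were less frequent in all 3 Ang II libraries than in the control. They had 563 reads in the control library and 385, 405 and 351 after 1, 3 and 24 h. The levels were 39.1 RPM in the control (35.9 to 42.5), 29.3 RPM after 1 h (26.5 to 32.4), 28.2 RPM after 3 h (25.5 to 31.1) and 24.2 RPM after 24 h (21.7 to 26.8). The control's counting interval lay above those of all 3 Ang II libraries, while the intervals at 1 h, 3 h and 24 h all overlapped one another.

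The U6 level was 0.750 of control at 1 h (0.657 to 0.856), 0.721 at 3 h (0.633 to 0.820) and 0.618 at 24 h (0.539 to 0.707). On the log2 scale these were -0.40, -0.46 and -0.67, and only the 24 h level was called, as lower. It lost the call with TMM factors (-0.48), with median-of-ratios factors (-0.48) and with a pseudocount of 10 (-0.52). Its log2 ratio to the control was below 0 under all 15 alternatives that kept the control as reference. Some of these could not change the sign. The 2-fold limit and leaving out tags in miRNA hairpins or gene starts left the value as it was, and a pseudocount cannot reverse a ratio. At that time 23.9% of tags and 11.1% of hairpin sums were called lower.

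Other library-wide values moved with Ang II as well. The level of miR-143-3p was 1.22, 1.25 and 1.23 of control after 1, 3 and 24 h, and that of miR-145-5p was 1.06, 0.974 and 1.08. The level of miR-126a-3p was 0.914, 1.04 and 0.871 of control at the same times, and that of miR-1-3p was 0.895, 0.817 and 0.811. Reads in miRNA hairpins made up 54.9% of the control library and 57.4% to 59.2% of the Ang II libraries. None of these 4 miRNAs passed the size limit, and the part of these values in the U6 difference was not tested.

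Y1 fragments stayed within the size limit at all times. They had 2511 reads in the control library and 2077, 2431 and 2902 after 1, 3 and 24 h. The levels were 174 RPM in the control (168 to 181), 158 RPM after 1 h (152 to 165), 169 RPM after 3 h (163 to 176) and 199.7 RPM after 24 h (193 to 207). The 24 h library was highest and the 1 h library lowest, and their intervals overlapped neither each other nor the control's.

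The Y1 level was 0.908 of control at 1 h (0.856 to 0.962), 0.970 at 3 h (0.917 to 1.03) and 1.15 at 24 h (1.09 to 1.21). The log2 ratios were -0.14, -0.04 and 0.19, and none was called. The 1 h and 3 h values change sign with TMM factors (0.03 and 0.15) and with median-of-ratios factors (0.01 and 0.13), so no direction can be given at those times. The 24 h value was above the control under all 15 alternatives that kept the control as reference, with log2 ratios of 0.10 to 0.40. As for U6, the 2-fold limit, the pseudocounts and leaving out tags in miRNA hairpins or gene starts could not change the sign.

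**Figure D1:**
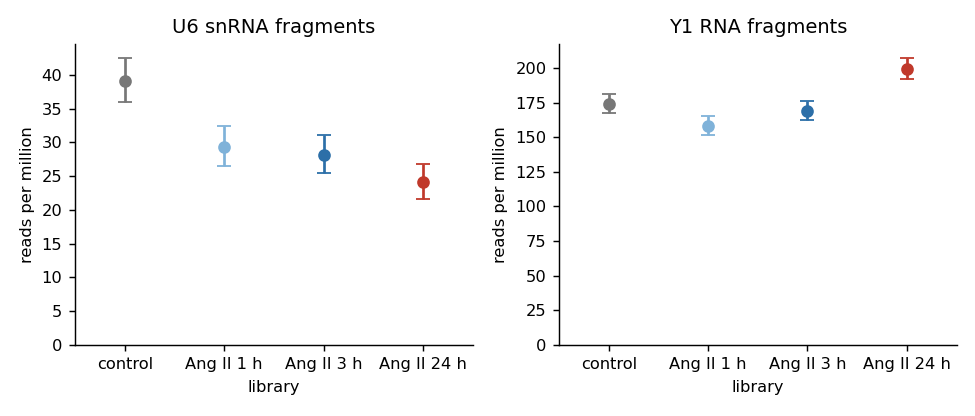
Levels of U6 snRNA fragments (left) and Y1 RNA fragments (right) in RPM for the control library and the 3 Ang II libraries, 1 library per group. Points are levels and bars are exact 95% Poisson intervals for counting error. U6 was at 39.1 RPM in the control and between 24.2 and 29.3 RPM with Ang II, and Y1 lay between 158 and 199.7 RPM.

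Only 2 further RNAs of the small noncoding kind could be set beside them from the reference used. A 5.8S-type ribosomal RNA (LOC134486017, chr2:1638507-1638659 of GRCr8) had 1603 reads in the control library and 1066, 1710 and 1308 after 1, 3 and 24 h. Its level was 0.730, 1.07 and 0.808 of control at 1 h, 3 h and 24 h, and none was called. An 80-nt stretch of Rpph1 (chr15:26507409-26507488), named for the RNA of RNase P and classed by RefSeq as RNase MRP RNA, had 5 to 11 reads a library. U1, U2, U4, U5, Y3, 7SK, 7SL and vault RNA were not analysed here.

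Within the joined 107 nt, most U6 reads were internal, that is, away from both ends. Reads that started within 3 nt of its 5' end numbered 0 in the control and 0, 0 and 1 after 1, 3 and 24 h. The exact interval for 0 of 563 reads in the control reaches a share of 0.653%. Internal reads made up 96.8% of U6 reads in the control (94.99 to 98.1), 94.8% after 1 h (92.1 to 96.8), 93.3% after 3 h (90.4 to 95.6) and 97.2% after 24 h (94.8 to 98.6). Reads ending within 3 nt of the 3' end were 18 in the control and 20, 27 and 9 after 1, 3 and 24 h. These counts leave out reads whose run of T passes position 107, of which there were more in every library (66 in the control and 43, 39 and 41 after 1, 3 and 24 h). With them added, 3' reads made up 13.4% in the control (10.8 to 16.3), 14.7% after 1 h (11.5 to 18.4), 14.9% after 3 h (11.7 to 18.5) and 12.8% after 24 h (9.62 to 16.5), so the internal shares above depend on where the joined sequence was cut.

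U6 coverage formed a single plateau in the reads counted, which leave out those whose run of T passes the joined end. Position 55 was covered by 1377 of the 1704 U6 reads (80.8%), and position 1 by 1 read.

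No single tag dominated among the 439 U6 tags. The most read one, at positions 29 to 55, had 22 reads in the control and 20, 16 and 13 after 1, 3 and 24 h. The tag at 31 to 55 had 17, 18, 15 and 14 reads in the same order, and the tag at 32 to 55 had 13, 7, 7 and 4. The other 7 of the 10 most read U6 tags had 1 to 16 reads a library. None of the 439 reached 100 reads in any library, so no U6 tag could be called by itself. Of the 439, 185 were read once over the 4 libraries and 44 were read in all 4 (756 of 1704 reads).

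Among the U6 reads counted, starts were spread while ends were more fixed. The commonest start, position 31, began 12.8% of U6 reads, followed by positions 29 (8.51%) and 26 (7.63%). Starts at position 77 numbered 13 in the control and 16, 17 and 14 after 1, 3 and 24 h. These counts leave out 189 reads with 6 or more T, which pass the joined end. In joining, support rose from 59 to 261 reads at the step that reads starting at position 77 first reach. The ranking of starts and ends thus depends on where the joined sequence was cut. The commonest end, position 55, closed 19.8% of reads, followed by positions 58 (10.7%) and 57 (8.69%). Reads ending at position 55 numbered 95 in the control and 90, 86 and 66 after 1, 3 and 24 h. Reads ending at position 58 numbered 68 in the control and 33, 53 and 28 after 1, 3 and 24 h, and at position 56 they numbered 28, 10, 12 and 11.

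The lower U6 level at 24 h was seen along the molecule. Reads starting in positions 1 to 36 had 0.620 of the control level at 24 h (0.531 to 0.722), those starting in 37 to 72 had 0.645 (0.455 to 0.909), and those starting at 73 or later had 0.510 (0.267 to 0.943). Only the first group had 100 reads and was called. At 1 h the same groups had 0.697, 0.875 and 1.13 of the control level, with intervals that all overlapped one another. Reads with 6 or more T, which pass the joined end, are in none of these groups. They numbered 66 in the control and 43 after 1 h, against 33 and 34 reads in the last group. The ratios of the last group, and the order of the groups at 1 h, thus depend on where the joined sequence was cut.

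**Figure D2:**
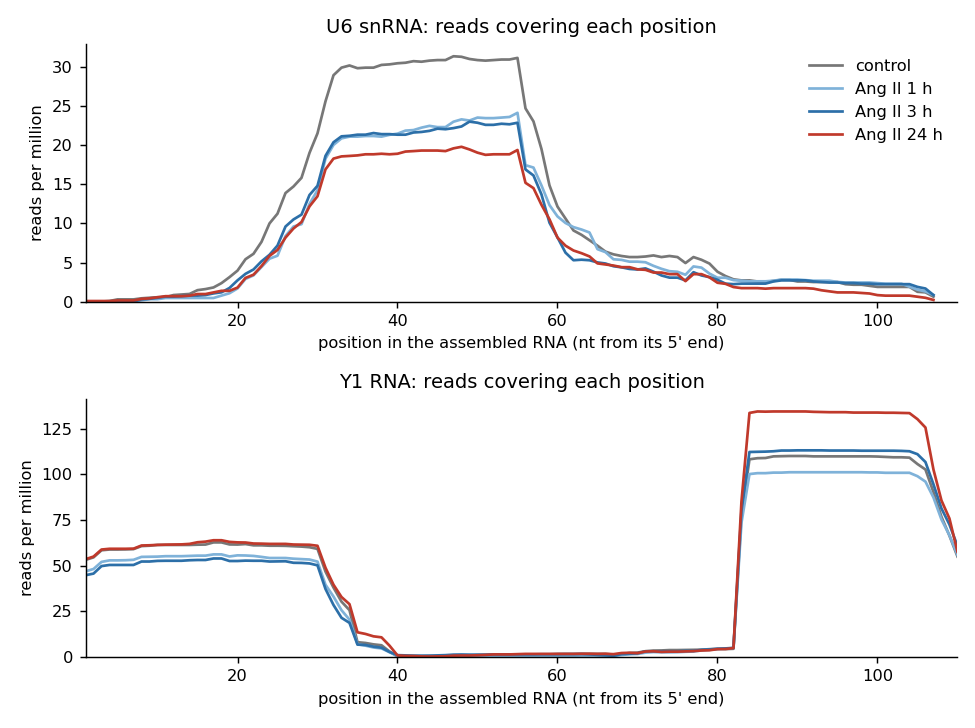
Read depth in RPM over each position of U6 snRNA (top) and Y1 RNA (bottom), counted from the 5' end, with 1 line for each library. U6 has a single plateau between about positions 31 and 55 that is highest in the control. Y1 has 2 separate plateaus at its ends with almost no reads between, and the 3' plateau is highest at 24 h.

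By length, U6 reads were broad, with a median of 30 nt in every library. Reads of 25 to 29 nt numbered 178 in the control and 109, 131 and 97 after 1, 3 and 24 h. Reads of 30 to 35 nt numbered 190 in the control and 136, 139 and 111 after 1, 3 and 24 h. These were the length classes called lower at 24 h, at 0.540 (0.417 to 0.695) and 0.579 (0.454 to 0.735) of the control level. Both calls ended with a pseudocount of 10 (log2 ratios of -0.42 and -0.40) and with a 2-fold limit. That of 30 to 35 nt also ended with TMM factors (-0.54) and median-of-ratios factors (-0.53). Against the 1 h library, neither class was called at 24 h (-0.28 and -0.40).

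Reads of those lengths were less frequent at 24 h across the whole library too. All reads of 25 to 29 nt were at 0.759 of the control level at 24 h and all reads of 30 to 35 nt at 0.835, while all reads of 22 to 24 nt were at 0.991. U6 reads of 22 to 24 nt numbered 39 in the control and 42, 30 and 38 after 1, 3 and 24 h, a 24 h ratio of 0.965 (0.601 to 1.55). U6 reads of 18 to 21 nt numbered 41 in the control and 24, 29 and 15 after 1, 3 and 24 h, a 24 h ratio of 0.362 (0.186 to 0.669), while all reads of that length were at 1.10. That class had too few reads to be called, and its ratio was the lowest of the 5 length classes. The part of library-wide length in the U6 difference was not tested.

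**Figure D3:**
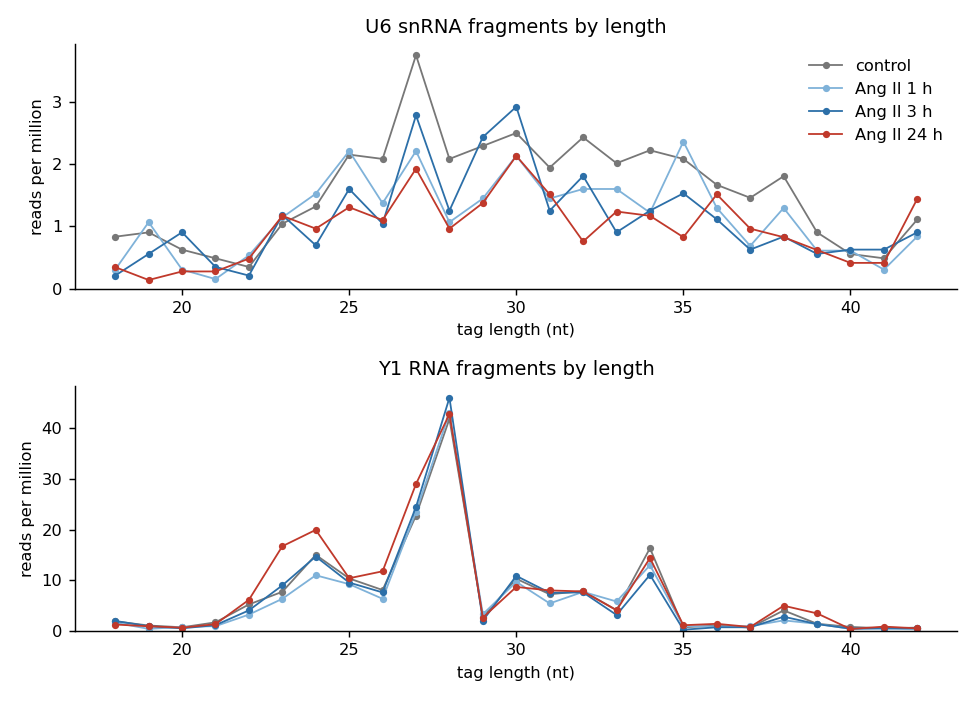
Levels in RPM by tag length for U6 snRNA (top) and Y1 RNA (bottom), 1 line per library. U6 lengths are spread between 18 and 42 nt, with the control line highest at most lengths from 25 nt up. Y1 lengths peak at 28 nt and at 34 nt, and the 24 h line stands above the others at 23 and 24 nt.

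The U6 reads that reached the uridine run, written as T in the tags, were a minority. Over the 4 libraries, 300 reads went through the last base before the run, 98 of them in the control and 75, 74 and 53 after 1, 3 and 24 h. Of these, 66 in the control and 43, 39 and 41 after 1, 3 and 24 h had 6 or more T, more than the 5 in the joined sequence. Such tags run past position 107 and are not among the 439.

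Y1 was laid out otherwise, with reads at both ends and few between. Position 90 was covered by 6489 of the 9921 Y1 reads (65.4%) and position 43 by 17. Reads that started within 3 nt of the 5' end numbered 840 in the control and 682, 714 and 854 after 1, 3 and 24 h. Reads that ended within 3 nt of the 3' end numbered 1104 in the control and 987, 1168 and 1245 after 1, 3 and 24 h. The others, 567 in the control and 408, 549 and 803 after 1, 3 and 24 h, were mostly 3' pieces that stopped a few bases short.

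In a computed minimum-energy fold of the joined Y1 sequence (RNAfold), positions 1 to 8 paired with 101 to 108 and positions 13 to 21 with 86 to 94. The 5' plateau thus held one side of these stems and the 3' plateau the other. The commonest 3' starts, 83 and 84, lay just before position 86, where the second stem's 3' side begins. The commonest 5' end, position 34, lay inside a further helix of positions 29 to 37 with 42 to 50. The fold is a prediction from sequence and was not measured.

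Y1 fragments had sharp starts. Position 83 began 42.3% of Y1 reads, position 1 began 28.2% and position 84 began 19.8%. Ends were more spread, at position 110 (32.6%), 34 (8.32%), 106 (8.09%), 107 (7.95%), 109 (7.44%) and 30 (7.13%). Like the other shares of all Y1 reads, these leave out 3' reads that ran past position 110. The most read tag of that kind, from position 83, had 786 reads over the 4 libraries. The shares thus depend on where the joined sequence was ended. The tags below carry most of the pattern. Capitals mark the bases after position 106 in the 3' tags and after position 34 in the 5' tags.
Y1 positions 83 to 110: cttctcactactgcacttgactagTCTT
Y1 positions 84 to 110: ttctcactactgcacttgactagTCTT
Y1 positions 83 to 109: cttctcactactgcacttgactagTCT
Y1 positions 84 to 107: ttctcactactgcacttgactagT
Y1 positions 83 to 106: cttctcactactgcacttgactag
Y1 positions 84 to 106: ttctcactactgcacttgactag
Y1 positions 1 to 30: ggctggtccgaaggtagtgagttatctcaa
Y1 positions 1 to 34: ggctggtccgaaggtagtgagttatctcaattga
Y1 positions 1 to 38: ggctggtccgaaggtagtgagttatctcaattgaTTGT
Y1 positions 1 to 39: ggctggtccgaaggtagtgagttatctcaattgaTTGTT

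The most read Y1 tag, at positions 83 to 110, had 579 reads in the control and 532, 629 and 588 after 1, 3 and 24 h. Its levels of 40.2, 40.6, 43.8 and 40.5 RPM in that order gave a 24 h ratio of 1.01 (0.895 to 1.13). The tag at 84 to 110, shorter by its first base, had 201, 186, 222 and 231 reads in the same order, a 24 h ratio of 1.14 (0.938 to 1.38). The full-length 3' pieces thus differed little between libraries.

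The tag at positions 84 to 106 was higher at 24 h. It had 62 reads in the control and 44, 63 and 199 after 1, 3 and 24 h, or 4.31 RPM (3.30 to 5.52), 3.35 RPM (2.44 to 4.50), 4.38 RPM (3.37 to 5.61) and 13.7 RPM (11.8 to 15.7). The 24 h library stood alone, and the control, 1 h and 3 h intervals overlapped. Its 24 h level was 3.18-fold the control level (2.38 to 4.30), a log2 ratio of 1.47.

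It was the only one of the 11 Y1 tags with 100 reads that was called at 24 h, and none of 8 was called at 1 h or at 3 h. Its control count of 62 fell short of 100, so only the 24 h library brought it into the 11. The tag at 84 to 107 (84 and 134 reads) entered likewise. Tags that enter this way can be called higher but not lower. The interval of 2.38 to 4.30 for the tag at 84 to 106 makes no allowance for its choice as the highest 24 h ratio. A share of 9.09% called higher is near the 12.9% among all tags at 24 h. With a pseudocount of 10 its log2 ratio was 0.73, still past the limit. The tag with the lowest 24 h ratio, at positions 1 to 34, had 234 reads in the control and 167, 154 and 205 after 1, 3 and 24 h, a 24 h ratio of 0.868 (0.716 to 1.05). It also had the lowest ratio at 3 h (0.659), and the tag at 83 to 106 had the lowest at 1 h (0.660).

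The same end 1 base upstream moved less. The tag at 83 to 106 had 108 reads in the control and 65, 107 and 128 after 1, 3 and 24 h, a 24 h ratio of 1.17 (0.902 to 1.53), whose interval lies below that of the tag at 84 to 106. The tag at 84 to 107 had 84, 57, 83 and 134 reads in that order, a 24 h ratio of 1.58 (1.19 to 2.10). The tag at 83 to 109 had 120, 109, 124 and 186 reads, a 24 h ratio of 1.54 (1.21 to 1.95). The tag at 83 to 107 had 104, 95, 103 and 107 reads, a 24 h ratio of 1.02 (0.771 to 1.35). None of these 3 passed the size limit on the log2(RPM + 1) scale, though with TMM factors those at 84 to 107 and 83 to 109 did.

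**Figure D4:**
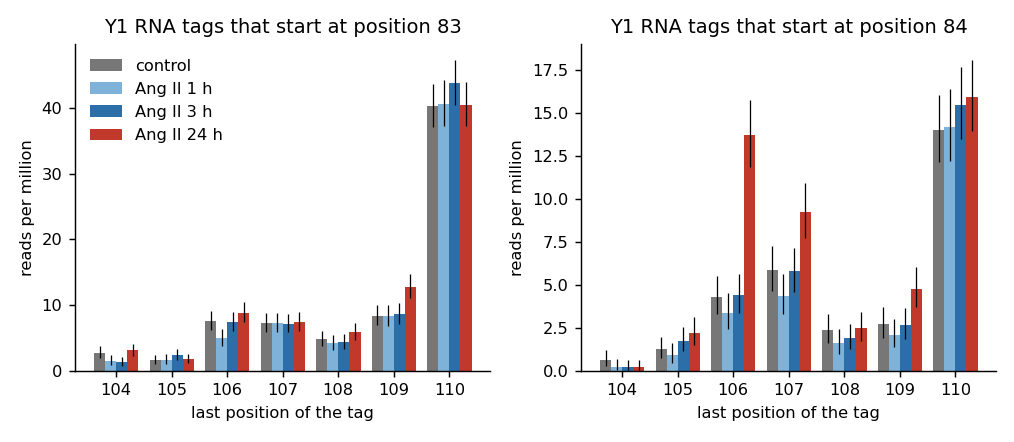
Y1 RNA tags that start at position 83 (left) and 84 (right) by their last position, in RPM, with bars for the control, 1 h, 3 h and 24 h libraries and exact 95% Poisson intervals. The 24 h bar for positions 84 to 106 is at 13.7 RPM, against 4.31 RPM in the control, while the bars that end at position 110 are alike in the 4 libraries. The panels have different vertical scales.

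Summed by start, Y1 reads from position 84 numbered 448 in the control and 350, 462 and 705 after 1, 3 and 24 h, a 24 h ratio of 1.56 (1.38 to 1.76) that was called higher. Reads from position 83 numbered 1047, 900, 1082 and 1168 in that order, a 24 h ratio of 1.10 (1.02 to 1.20). Reads from positions 1 to 3 were at 1.01 of the control level at 24 h (0.914 to 1.11). Of these 3 groups, only the reads from position 84 were called, and they include the called tag at 84 to 106. That tag alone went from 62 control reads to 199 at 24 h. The group's ratio without that tag was not computed. None of the other tags from position 84 that ended at positions 104 to 110 was called, with 24 h ratios of 0.330 to 1.76. Of these, the tags at 84 to 107 and 84 to 110 had at least 100 reads at 24 h, with ratios of 1.58 and 1.14. The call thus does not describe all reads from position 84.

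By last position, Y1 reads ending at 106 and at 109 were called higher at 24 h. Those ending at 106 numbered 178 in the control and 335 at 24 h (1.86, 1.55 to 2.25) and include the tag at 84 to 106. Those ending at 109 numbered 164 in the control and 265 at 24 h (1.60, 1.31 to 1.96) and do not include it. Reads ending at 107, 108 and 110 were not called. Without the tag at 84 to 106, the Y1 level at 24 h was 1.09 of control (1.03 to 1.16) in place of 1.15. That tag made up 2.47% of Y1 reads in the control (1.90 to 3.15), 2.12% after 1 h (1.54 to 2.83), 2.59% after 3 h (2.00 to 3.30) and 6.86% after 24 h (5.96 to 7.84).

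Y1 reads of 22 to 24 nt were the length class that was called. They numbered 402 in the control and 269, 398 and 622 after 1, 3 and 24 h, a 24 h ratio of 1.53 (1.35 to 1.74), while all reads of that length in the library were at 0.991. Without the tag at 84 to 106 the ratio was 1.23 (1.07 to 1.43), which was not called. The call also ended with a pseudocount of 10 (log2 ratio of 0.48), with scaling to hairpin reads (0.54) and with a 2-fold limit. Reads of 25 to 29 nt, the largest class, made up 49.2% of Y1 reads in the control and 54.0%, 53.0% and 48.4% after 1, 3 and 24 h. The median length was 28 nt in every library.

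On the 5' side, reads of 36 to 42 nt were scarce. They numbered 83 in the control and 54, 58 and 142 after 1, 3 and 24 h, a 24 h ratio of 1.69 (1.28 to 2.25) that was called higher. With a pseudocount of 10 the log2 ratio was 0.33, below the limit, and the call also ended with a 2-fold limit. Most came from the tag at 1 to 38, with 45, 19, 25 and 63 reads in that order, and the tag at 1 to 39, with 19, 17, 16 and 49 reads. The shorter tag at 1 to 30 had 136, 114, 145 and 121 reads, a 24 h ratio of 0.881 (0.684 to 1.13), and the tag at 1 to 32 had 104, 90, 96 and 96 reads, a 24 h ratio of 0.914 (0.686 to 1.22).

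Many 3' pieces of Y1 ran past position 110. The reads that reached it numbered 1576 in the control and 1568, 1677 and 1519 after 1, 3 and 24 h. Of these, 50.2% ended there in the control (47.7 to 52.7), 46.7% after 1 h (44.2 to 49.2), 52.1% after 3 h (49.6 to 54.5) and 55.04% after 24 h (52.5 to 57.6). Those that went on with cytosine, or cytosine then thymines, were 19.9% in the control and 18.4%, 15.98% and 17.6% after 1, 3 and 24 h. Endings with thymines only were 7.23% in the control and 7.40%, 5.66% and 5.66% after 1, 3 and 24 h. A rat gene copy was not used here, so encoded and added bases cannot be told apart.

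Adenines alone followed in 304 reads of the control and 372, 385 and 296 after 1, 3 and 24 h. The 3' adapter of these libraries begins with adenine, so 1 added adenine cannot be told apart from adapter sequence. Endings with 2 or more adenines, which the adapter's next base does not give, numbered 51 in the control (3.24%, 2.42 to 4.23), 55 after 1 h (3.51%, 2.65 to 4.54), 76 after 3 h (4.53%, 3.59 to 5.64) and 20 after 24 h (1.32%, 0.806 to 2.03). The 24 h share lay below those of the other libraries, with intervals that did not overlap.

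**Figure D5:**
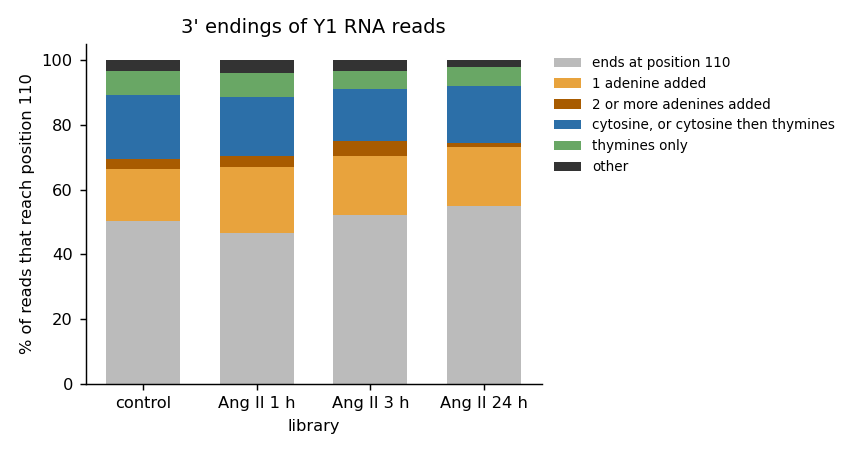
Shares of Y1 RNA reads that reach position 110, by what follows it, in the control and the 3 Ang II libraries (1 library each, % of 1519 to 1677 reads). Those ending at position 110 are the largest class in each library (46.7% to 55.04%), and endings with 2 or more adenines are fewest at 24 h (1.32%).

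Tags with 1 base changed held 3229 further reads for Y1 and 330 for U6, and were not counted as members. With changes in the last bases left out, A-to-C made up 47.0% of the changed reads of Y1 and 42.2% of those of U6. The most frequent was A29C in Y1 (the joined sequence's base, its position, the tag's base), with 106 reads of 3298 over that position (3.21%), followed by A12C with 82 of 3341 (2.45%). A29C had 35 reads in the control and 26, 26 and 19 after 1, 3 and 24 h.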

How the data were processed

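Small RNA of 17 to 52 nt was sequenced from 0.5 ug of total RNA after 12 PCR cycles, per the labels' protocols. The deposited files hold raw read counts per distinct tag, 16 to 42 nt long, with no normalization, so inserts over 42 nt appear cropped. The submitters' processing notes name Novoalign and rn4. Trimming and filtering are not given in the sources used here. A row without a sequence (5.13 to 7.07% of reads) was left out. RefSeq tables (GRCr8) served for miRNA hairpins, Rnu6 gene lengths and the 5.8S and Rpph1 stretches, and no coordinate was converted. The joined U6 sequence is not reported here.

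The members, lists and size limits were chosen with earlier results of these data known. Named tags were the 10 most read per RNA and, at each time, the highest and lowest ratio among tags with 100 reads. The Y1 pieces at 1 to 38 and 1 to 39, the U6 and Y1 position groups and the A-ending classes were chosen after their values were seen. Poisson, Clopper-Pearson and conditional binomial intervals at 95% cover counting error only. With 1 library per group, no test was made, and p-values are absent. Matching and calling were checked on simulated data. Alternatives were TMM (edgeR 4.0.16, R 4.3.3) and median-of-ratios factors, length limits of 20 and 24 nt, mismatches and unmatched ends, other pseudocounts and read minimums. Scripts ran in Python 3.11.15 with scipy 1.17.1 and numpy 2.4.6, and folding used RNAfold 2.7.2.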

Additional observations from a re-analysis of the deposited data

How the results depend on the processing

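No paired analysis was possible because each group had 1 library. Summed levels are log2 ratios to control. With TMM factors, U6 was at -0.27 at 3 h and -0.48 at 24 h, and Y1 at 0.027, 0.15 and 0.39 at 1 h, 3 h and 24 h. With median-of-ratios factors, U6 was at -0.48 at 24 h, and Y1 at 0.0059, 0.13 and 0.40. Against the 1 h library, U6 was at -0.056 at 3 h and -0.27 at 24 h, and Y1 at 0.095 and 0.33. Counting tags past the 3' end put Y1 at -0.044 at 1 h and 0.11 at 24 h, and unmatched last bases put it at 0.10 at 24 h. Scaling to hairpin reads put Y1 at -0.15 at 3 h. The U6 call at 24 h held in 11 of 15 alternatives against the control and also ended with a 2-fold limit. Leaving out tags in hairpins or gene starts, counted among the 11, removed no tag. With starts at position 1 only, the 5' share of Y1 was 30.4%, 29.6%, 26.4% and 26.8% in the control, 1 h, 3 h and 24 h libraries. The 5' share of U6 at 24 h was 0 with tags of 20 nt or more and without tags read once. Tags called at 24 h were 2 with 50 reads, 0 with 300 reads and 3 with TMM factors, against 1. The 5.8S-type RNA was at -0.29, 0.29 and -0.11 with TMM factors. The other 123 values of these summaries moved by less than counting error. The cause of these moves was not tested. Choosing 1 reference copy per RNA was not run, since no copy was used. Tags past the 3' end, hairpin scaling, leaving out tags in hairpins or gene starts, and the 1 h reference were chosen after seeing the data. Depth limits U6 most, since no tag of it had 100 reads in a library.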
